A study of Capra hircus with 6 samples.

Results

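The genes described here are 48 named members of the NF-κB pathway, from its receptors and adaptors through its kinases and transcription factors to a group of inflammatory target genes. They were found by gene name in the deposited expression table, and 45 of the 48 had a row among its 27271 genes. CSNK2A1, CSNK2B and VCAM1 were not found by name and were not analysed here. Of the 45 genes, 43 had at least 1 count in at least 1 library, 18 had counts in all 6 libraries, and 22 had enough counts to be tested, against 6574 tested genes in the whole table. TRAF5 and REL had a count of 0 in all 6 libraries.

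NF-κB is a family of dimeric transcription factors built from RELA, RELB, REL and the processed forms of NFKB1 and NFKB2. In resting cells the dimers are held in the cytoplasm by inhibitors such as NFKBIA. Receptors for TNF, interleukin-1, lymphotoxin and bacterial lipids act through TRAF and IRAK adaptors on the IKK complex, whose kinases CHUK and IKBKB and scaffold IKBKG mark the inhibitor for degradation in the canonical branch, while the noncanonical branch runs through CHUK and the processing of NFKB2. In fat precursor cells the pathway is known for inflammatory signalling and for restraining adipocyte formation.

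The cells were intramuscular preadipocytes of the goat, precursors of the fat found inside muscle, cultured from the longissimus dorsi of 3-day-old Jianzhou goats. They received either a negative control siRNA (NC groups, genotype labelled WT, n = 3) or an siRNA against LIPG, the endothelial lipase (Si-LIPG groups, genotype labelled LIPG Knock down, n = 3), and the cells of all 6 libraries were induced to differentiate with 50 μmol/L oleic acid for 48 h. Poly(A) RNA was sequenced from libraries with a dUTP step that keeps the strand. The study's methods call its replicates biological, but the labels do not say whether the libraries came from separate animals or cultures, so p-values measure only the spread between these libraries. Where 3 values are given for a group they stand in the order of libraries 1, 2 and 3. The comparison asks how transcripts of the pathway differ between cells with and without the LIPG siRNA.

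Few reads of these libraries were counted on genes, and the strand setting of the counting is not given, so it could not be checked that the counts of a gene, IKBKG included, are reads of its own strand. NC libraries had 524776 to 703680 reads counted on genes and Si-LIPG libraries 864882 to 1051230, or 1.31% ± 0.279 and 2.44% ± 0.566 of all reads (SD, n = 3), and every Si-LIPG library had the higher share (p = 0.1 in a two-sided exact permutation test, which cannot go lower with 3 against 3). LIPG itself was counted 0, 2 and 0 times in NC against 0, 2 and 2 times in Si-LIPG, so its silencing could not be detected and gives no check of the labels. NC 1 stood apart from the other libraries, with a score of -98.1 on the first principal component against -5.51 and -3.998 for NC 2 and NC 3 and 19.1 to 45.4 for Si-LIPG. Of the mesenchymal markers 9 of the 10 in the table were counted, with a summed FPKM of 3364 to 7059 in NC and 9964 to 10603 in Si-LIPG, while DLK1 was at 0. The 9 tested genes of this list had a median log2 fold change of 0.11, and 1 of them, ENG, passed the criterion, lower in Si-LIPG (-1.07). Adipocyte markers had counts for 6 of 7 genes and never over 14 in a library (summed FPKM 1.56 to 43.4 in NC and 4.46 to 31.1 in Si-LIPG), with LPL at 0. Myogenic markers had counts for 5 of 5 genes (24.9 to 42.5 in NC and 45.8 to 53.5 in Si-LIPG), endothelial markers for 2 of 5 (at most 2.87, CDH5, KDR and TEK at 0) and leukocyte markers for 4 of 8 (13.3 to 29.1 in NC and 13.3 to 17.5 in Si-LIPG, PTPRC, ITGAM, MRC1 and CD3E at 0). Their part in the results was not tested. In bulk samples of this kind, fewer cells of a type and less RNA per cell cannot be told apart.

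Levels were compared between genes as FPKM, in which the authors divided reads by the length of the gene and the size of the library, so that longer genes do not count for more. IKBKG, the non-catalytic scaffold of the IKK complex, was the highest member, with a mean of 160.9 FPKM over the 6 libraries, above 96.9% of all genes with a count. Its values were 252.6, 222.5 and 195.5 FPKM in NC and 134.5, 84.3 and 75.8 FPKM in Si-LIPG. TAB2, an adaptor that carries the kinase TAK1 to ubiquitin chains, was next with 38.2 FPKM, and IKBKG was above it in 6 of 6 libraries with ranges that did not meet. PARP1 (33.2 FPKM), a DNA repair enzyme that also acts in NF-κB activation after DNA damage, TRADD (33.0 FPKM) and TNFRSF1A (27.2 FPKM) followed, and from TAB2 downwards the ranges of every pair of neighbours in the order overlapped. In all, 9 members had a mean above 10 FPKM, 29 had one between 1 and 10 FPKM, and 7 had one of at most 1 FPKM. Among the 43 members with a count the median was 5.42 FPKM, that of TRIM25, against 5.38 FPKM for all genes with a count. The pathway was thus seen in these libraries at about the level of an ordinary gene, with IKBKG far above the rest.

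**Figure D1:**
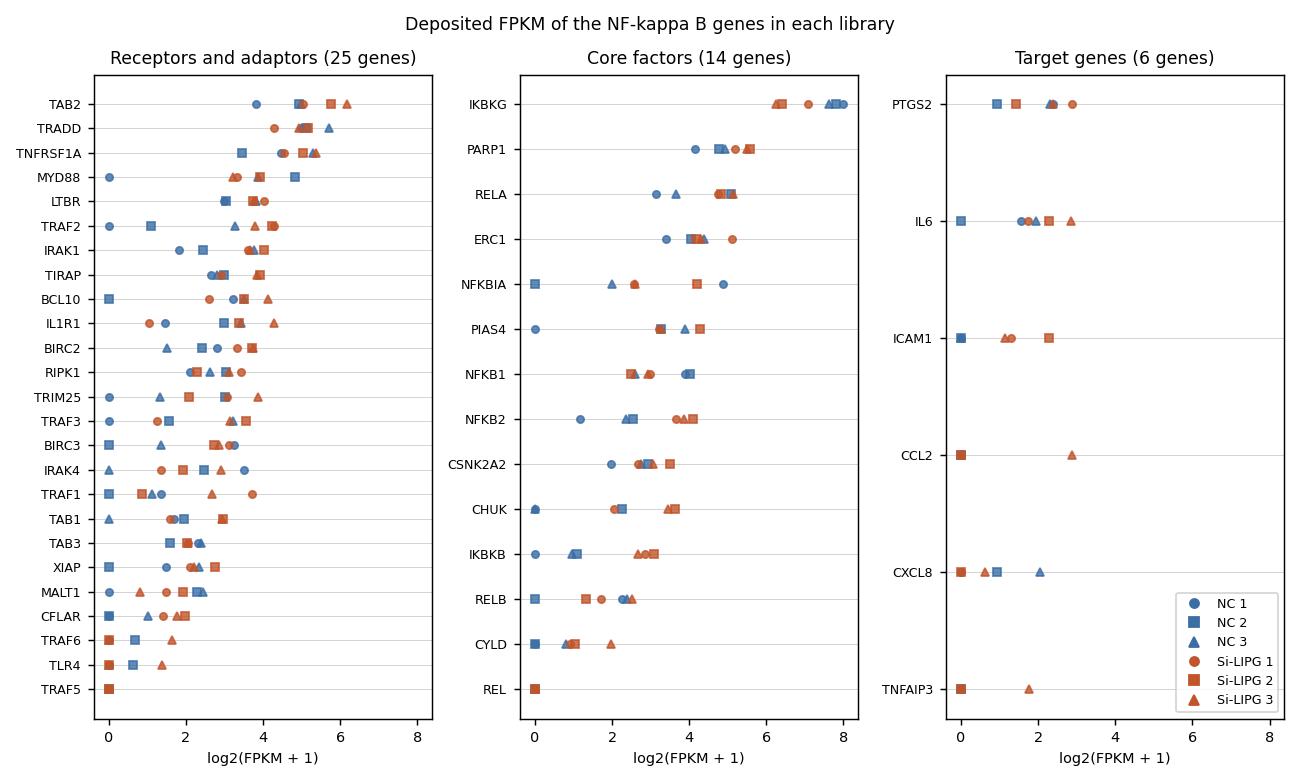
Deposited FPKM of the 45 genes in the table, on a log2(FPKM + 1) axis, for receptors and adaptors, core factors and target genes, with each gene's 6 libraries as points (blue, NC; orange, Si-LIPG; circle, square and triangle, libraries 1, 2 and 3). IKBKG lies highest, with its NC points to the right of its Si-LIPG points, and most of the target genes lie near 0.

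The members took up 0.106%, 0.119% and 0.123% of the reads counted on genes in NC, and 0.126%, 0.131% and 0.139% in Si-LIPG. These shares did not overlap between the groups. Scaled by library sizes alone, the median log2 fold change (positive, higher in Si-LIPG) was 0.74 over all tested genes and 0.64 over the tested members. The higher share is thus not particular to the members. IKBKG alone gave 52.8%, 41.3% and 35.2% of the members' counts in NC and 23.7%, 14.2% and 12.1% in Si-LIPG. The number of members with a count was 27, 31 and 35 in NC and 38, 38 and 43 in Si-LIPG, the same order as the number of reads counted on genes, whose part in this was not tested.

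Between the groups, 5 of the 22 tested members passed the study's criterion, a fold change over 1.5 with an unadjusted p under 0.05, in edgeR's quasi-likelihood test on TMM-normalized counts. That is 22.7% of the tested members, against 20.7% of all tested genes. Without NC 1 the criterion was passed by 4 members, 3 of the 5 and BIRC2 (18.1% of all tested genes). Without Si-LIPG 1 it was passed by 2 of the 5, IKBKG and NFKB1 (20.7%), without Si-LIPG 2 by IKBKG alone (13.2%), and without Si-LIPG 3 by IKBKG and NFKB1 (12.8%). IKBKB and NFKB2 were higher in Si-LIPG, and 7.83% of all tested genes were. IKBKG, NFKB1 and TRADD were lower, and 12.9% of all tested genes were. The study itself, with DESeq2, reports more genes higher than lower at this criterion. After Benjamini-Hochberg adjustment over all tested genes, IKBKG was the 1 member with an adjusted p under 0.05, a threshold that 6.51% of all tested genes passed. The normalized values of the groups did not overlap for 6 of the 22 members (27.3%), namely IKBKG, IKBKB, NFKB2, TRADD, TRAF2 and PARP1, against 28.7% of all tested genes. The log2 fold change, with positive values for genes higher in Si-LIPG, had a median of 0.13 among the tested members against 0.16 among all tested genes, and 15 of the members had a positive and 7 a negative value, against 3840 and 2734 of all tested genes. These signs moved with the scaling, to 17 and 5 with library sizes alone and 21 and 1 with counts scaled to all reads. In the share of calls, the share without overlap and the median, the set as a whole lay close to the background.

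**Figure D2:**
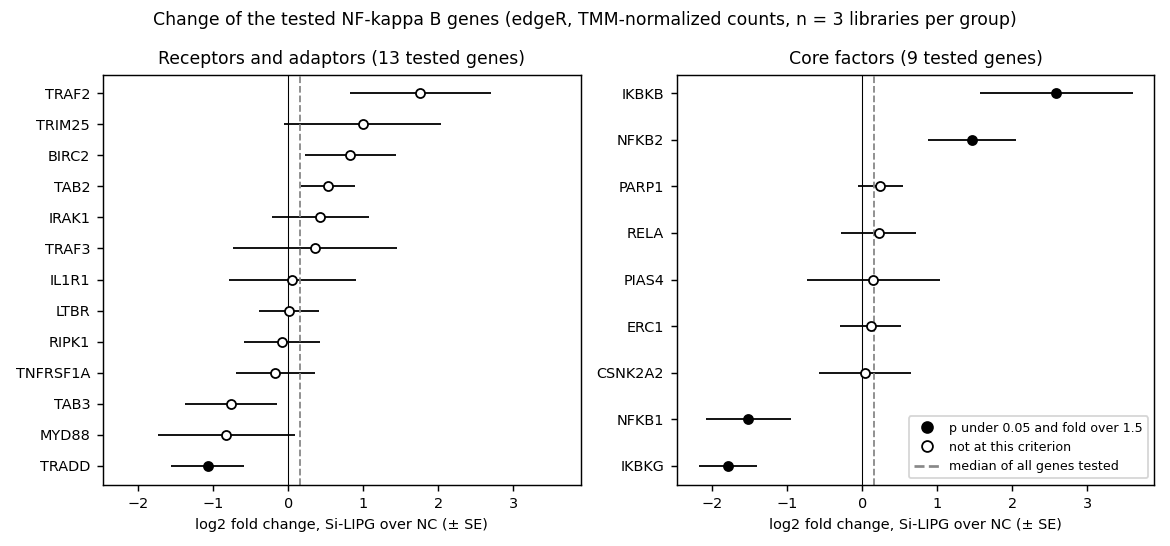
Log2 fold change (positive, higher in Si-LIPG) with its SE for the 13 tested receptors and adaptors and the 9 tested core factors, from edgeR on TMM-normalized counts of 3 libraries in each group. Filled points passed the study's criterion, and the dashed line is the median of all tested genes, 0.16.

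Among the receptors and adaptors, 25 genes were listed, 13 were tested and 1, TRADD, passed the criterion (7.69%, against 20.7% of all tested genes). Their log2 fold changes ran from -1.07 to 1.76, around a median of 0.05. TNFRSF1A, the main receptor for TNF, had counts of 15, 8 and 36 in NC and 26, 42 and 57 in Si-LIPG. Its normalized groups overlapped, with a log2 fold change of -0.17 ± 0.53 (SE, adjusted p = 0.899). LTBR, the lymphotoxin β receptor of the noncanonical branch, had counts of 19, 23 and 48 against 69, 64 and 69, and a log2 fold change of 0.0066 ± 0.40 (adjusted p = 0.995). IL1R1, the signalling receptor for interleukin-1, had counts of 2, 9 and 15 in NC and 2, 20 and 42 in Si-LIPG, with a log2 fold change of 0.05 ± 0.85 (adjusted p = 0.982). None of these receptors passed the criterion in this fit. LTBR passed it scaled to all reads (1.37), a scaling that moved the median of all genes to 1.58. IL1R1 passed it with the percentage of reads on genes as a covariate (-4.19, adjusted p = 0.99988, edgeR). TLR4, the receptor for bacterial lipopolysaccharide, had 1 count over the NC groups, in NC 2, and 5 over the Si-LIPG groups, all in Si-LIPG 3, and was not tested.

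TRADD (ENSCHIG00000024921), the adaptor that links the TNF receptor to RIPK1 and TRAF2, had counts of 15, 19 and 34 in NC and 15, 32 and 29 in Si-LIPG. After normalization, in CPM (counts scaled to a common, TMM-adjusted library size), these were 48.6, 34.2 and 53.6 in NC and 16.9, 26.1 and 21.2 in Si-LIPG, so that the raw counts overlapped and the normalized values did not. TRADD fell by 1.07 ± 0.49 (SE) on the log2 scale (adjusted p = 0.228, edgeR). The call was kept without NC 2 (-1.25) and lost without NC 1 (-1.03), NC 3 (-0.92), Si-LIPG 1 (-0.97), Si-LIPG 2 (-1.24) or Si-LIPG 3 (-1.06), with adjusted p-values between 0.174 and 0.521. The call was also lost with a fold of like size in DESeq2 (-1.08) and with upper quartile scaling (-1.03), and with a smaller one with library sizes alone (-0.46) and in limma on log2(FPKM + 1) (-0.48), among other alternatives. Scaled to all reads, which moved the median of all genes to 1.58, TRADD had a log2 fold change of 0.41 (adjusted p = 0.638), but relative to the median of all genes it was -1.17 there against -1.23 with TMM. FBXL8 overlaps TRADD in RefSeq's annotation of the assembly ARS1.2, and since the strand setting of the counting is not given, reads of the pair cannot be told apart.

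TRAF2, a ubiquitin ligase adaptor shared by both branches, had counts of 0, 1 and 9 in NC and 24, 26 and 20 in Si-LIPG. Each Si-LIPG library was above each NC library, but the log2 fold change of 1.76 ± 0.95 (SE) missed the criterion (adjusted p = 0.317, edgeR). It depended on NC 3, without which it was 4.04 and passed the criterion (adjusted p = 0.0659). Without NC 3 the NC group held 1 count of TRAF2, so 4.04 cannot be read as the size of a change. TRAF2 had enough counts to be tested through the Si-LIPG libraries, where it is high. BIRC2, a ubiquitin ligase that binds TRAF2, had counts of 12, 10 and 5 in NC and 30, 46 and 50 in Si-LIPG, and its log2 fold change was 0.83 ± 0.60 (adjusted p = 0.487). Without NC 1 that value was 1.48 and passed the criterion (adjusted p = 0.198), and without NC 3 it was 0.39 (adjusted p = 0.744). BIRC2, too, would not have passed the filter on low counts by its NC libraries alone. TRAF2 and BIRC2 were chosen for full values after these were seen. TAB2 had counts of 16, 41 and 50 against 64, 122 and 173, and after normalization its groups overlapped (log2 fold change 0.53 ± 0.36, adjusted p = 0.458).

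The remaining tested adaptors did not pass the criterion. MYD88, the adaptor of Toll-like and interleukin-1 receptors, had counts of 0, 19 and 11 against 9, 16 and 10, and IRAK1, a kinase recruited by it, had 3, 6 and 20 against 22, 34 and 28 (log2 fold changes -0.83 ± 0.92 and 0.43 ± 0.65). RIPK1, the kinase scaffold of the TNF receptor complex, had 10, 25 and 21 against 48, 22 and 46 (-0.08 ± 0.51). TRAF3, which restrains the noncanonical branch, had 0, 2 and 10 against 2, 18 and 14 (0.36 ± 1.09). The errors were wide, and the normalized groups of all 4 genes overlapped, while the raw counts of IRAK1 did not. TAB3, a relative of TAB2, had 14, 8 and 20 against 18, 20 and 22 (-0.76 ± 0.62), and the ubiquitin ligase TRIM25 had 0, 8 and 2 against 12, 6 and 27 (0.99 ± 1.05). Single libraries moved several of these values, with log2 fold changes of 2.59 for TRIM25 and 0.02 for MYD88 without NC 2. Without NC 3 the value was 1.22 for IRAK1. TRAF3 ran from -0.17 without Si-LIPG 2 to 2.002 without NC 3, where its remaining NC counts were 0 and 2.

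Of the 25 receptors and adaptors, 12 were too low to be tested. They included TRAF5 at 0 throughout, and TRAF6, the ubiquitin ligase of the interleukin-1 and Toll-like branch, with 0, 2 and 0 counts against 0, 0 and 12. TRAF1 had 1, 0 and 1 counts against 13, 1 and 7, and BIRC3, the inducible relative of BIRC2, had 8, 0 and 2 against 12, 10 and 12. CFLAR, the inhibitor of caspase-8 and itself an NF-κB target, had 0, 0 and 4 counts in NC and 8, 16 and 14 in Si-LIPG. CFLAR was the gene of these 12 whose normalized values did not overlap between the groups (6.30 CPM in NC 3 against 9.03 CPM in Si-LIPG 1). It was not tested. How often this happens among all genes too low to be tested was not computed, so no conclusion is drawn. XIAP, TAB1, TIRAP, IRAK4, BCL10 and MALT1 had between 0 and 24 counts in any library.

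The core factors held the other 4 of the 5 calls, 2 higher and 2 lower among 9 tested genes (44.4%, against 20.7% of all tested genes), and their log2 fold changes ran from -1.79 to 2.58 around a median of 0.15. IKBKB and NFKB2, the 2 calls higher in Si-LIPG, had too few counts in NC to be tested by NC alone. They passed the filter on low counts through the Si-LIPG libraries, where they are high. The share is thus partly set by the filter on low counts, and no conclusion is drawn from it. IKBKG (ENSCHIG00000023525) had counts of 293, 296 and 304 in NC and 257, 183 and 176 in Si-LIPG. The NC counts were the higher ones although fewer reads were counted on genes in NC. Normalized values were 950, 533 and 479 CPM in the NC groups (654 ± 258, SD, n = 3) and 290, 149 and 129 CPM in Si-LIPG (189 ± 87.9, SD, n = 3), without overlap. IKBKG fell by 1.79 ± 0.39 (SE) on the log2 scale, 3.45-fold lower in Si-LIPG (adjusted p = 0.0395, edgeR).

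The fall of IKBKG kept an unadjusted p under 0.05 when any 1 library was left out, with log2 fold changes from -2.24 to -1.43. Its adjusted p was above 0.05 without NC 1 (0.0685), NC 2 (0.056), Si-LIPG 2 (0.238) or Si-LIPG 3 (0.259), and it was 0.0411 without NC 3 and 0.00695 without Si-LIPG 1. As RPM of all reads, a count scaled by every read in the library's file, IKBKG stood at 5.57, 6.95 and 6.597 in NC and 5.35, 4.90 and 4.83 in Si-LIPG. These values still did not overlap, but the difference was smaller (6.37 ± 0.720 against 5.03 ± 0.284, SD, n = 3), with a fitted log2 fold change of -0.34 that missed the criterion (adjusted p = 0.385, edgeR). Relative to the median of all genes, which this scaling moved from 0.16 to 1.58, IKBKG lay at -1.95 with TMM and at -1.93 scaled to all reads. With the percentage of reads on genes as a covariate, the log2 fold change of IKBKG was -0.398 and the call was lost (adjusted p = 0.99988). IKBKG is unplaced in the ARS1.2 annotation, so overlapping genes could not be looked for.

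IKBKB (ENSCHIG00000014206), the main catalytic subunit of IKK in the canonical branch, moved the other way. Its counts were 0, 2 and 2 in NC and 16, 22 and 17 in Si-LIPG, or 0, 3.60 and 3.15 CPM against 18.1, 17.9 and 12.4 CPM, without overlap. IKBKB rose by a log2 fold change of 2.58 ± 1.02 (SE, adjusted p = 0.151, edgeR). With 4 counts over the NC group the fitted size is uncertain, and IKBKB reached the filter on low counts only through the Si-LIPG libraries, where it is high. The call held without NC 1 (2.21), NC 2 (2.92) or NC 3 (2.79) and was lost without Si-LIPG 1 (2.46), Si-LIPG 2 (2.50) or Si-LIPG 3 (2.74), with adjusted p-values between 0.160 and 0.478. It was also lost with the covariate (2.66). A long noncoding RNA overlaps IKBKB in the ARS1.2 annotation. CHUK, the other catalytic subunit, which the noncanonical branch needs, had counts of 0, 5 and 0 in NC and 6, 25 and 23 in Si-LIPG and was not tested, since it did not pass the filter on low counts.

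Within a library the 3 IKK genes can be set against each other without any scaling between libraries. IKBKG gave 100%, 97.7% and 99.3% of the IKK counts in NC (293 of 293, 296 of 303 and 304 of 306). In Si-LIPG it gave 92.1%, 79.6% and 81.5% (257 of 279, 183 of 230 and 176 of 216). The exact 95% binomial intervals were 98.7% to 100%, 95.3% to 99.1% and 97.7% to 99.9% in NC and 88.3% to 95.0%, 73.8% to 84.6% and 75.6% to 86.4% in Si-LIPG, and they cover counting error only. They take counts as independent, whereas 66.0% of the members' counts above 0 were even numbers, a pattern whose cause was not tested, and counts that come in pairs would widen them. Per length, IKBKG gave 100%, 97.9% and 99.5% of the summed FPKM of the 3 genes in NC against 93.5%, 81.6% and 83.2% in Si-LIPG. This share was chosen after the values were seen and is given as a description.

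NFKB1 (ENSCHIG00000008473), which gives the p105 precursor and the p50 subunit, had counts of 27, 34 and 13 in NC and 22, 17 and 26 in Si-LIPG. Its normalized values were 87.5, 61.2 and 20.5 CPM against 24.8, 13.9 and 19.0 CPM, so that NC 3 lay among the Si-LIPG libraries. NFKB1 fell by 1.52 ± 0.56 (SE) on the log2 scale (adjusted p = 0.125, edgeR). The call was lost without NC 1 (-1.08), NC 2 (-1.43) or Si-LIPG 2 (-1.31), with adjusted p-values of 0.359, 0.230 and 0.405. It was kept without Si-LIPG 1 (-1.75) or Si-LIPG 3 (-1.48), and without NC 3 (-1.94) the adjusted p was 0.0426. It was lost with library sizes alone (-0.87), in limma on log2(FPKM + 1) (-0.69) and log2(FPKM + 0.1) (-0.76) and with the covariate (-0.399). Scaled to all reads, NFKB1 had a log2 fold change of 0.029 (adjusted p = 0.974), but relative to the median of all genes -1.56 against -1.68 with TMM, with 0.531 ± 0.259 RPM of all reads in NC and 0.542 ± 0.148 in Si-LIPG.

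NFKB2 (ENSCHIG00000019967), which gives the p100 precursor and the p52 subunit of the noncanonical branch, had counts of 2, 9 and 9 in NC and 31, 49 and 44 in Si-LIPG. Its normalized values were 6.49, 16.2 and 14.2 CPM (12.3 ± 5.13, SD, n = 3) against 35.0, 39.9 and 32.1 CPM (35.7 ± 3.94), without overlap. NFKB2 rose by a log2 fold change of 1.47 ± 0.59 (SE), 2.76-fold (adjusted p = 0.158, edgeR). Its NC counts alone would not have passed the filter on low counts. It was tested through the Si-LIPG libraries, where it is high. The rise held without NC 1 (1.23), NC 2 (1.68) or NC 3 (1.55), but the call was lost without Si-LIPG 1 (1.44), Si-LIPG 2 (1.38) or Si-LIPG 3 (1.53), with adjusted p-values between 0.151 and 0.497. The call was also lost with the covariate (1.24). PSD lies within 1 kb of NFKB2 in ARS1.2 and had 1 count over all libraries.

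Set against each other within a library, NFKB2 gave 6.90%, 20.9% and 40.9% of the summed NFKB1 and NFKB2 counts in NC (2 of 29, 9 of 43 and 9 of 22). In Si-LIPG it gave 58.5%, 74.2% and 62.9% (31 of 53, 49 of 66 and 44 of 70). The groups did not overlap, but the exact 95% interval of NC 3, 20.7% to 63.6%, reached those of the Si-LIPG libraries (44.1% to 71.9%, 62.0% to 84.2% and 50.5% to 74.1%). Per length, NFKB2 stood at 0.0885, 0.316 and 0.827 times NFKB1 in FPKM in NC and at 1.68, 3.44 and 2.02 times NFKB1 in Si-LIPG. NFKB2 was thus below NFKB1 in the 3 NC libraries and above it in the 3 Si-LIPG libraries, but the intervals of NC 3 and Si-LIPG 1 reach to both sides of an equal level, and this description was chosen after the values were seen.

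**Figure D3:**
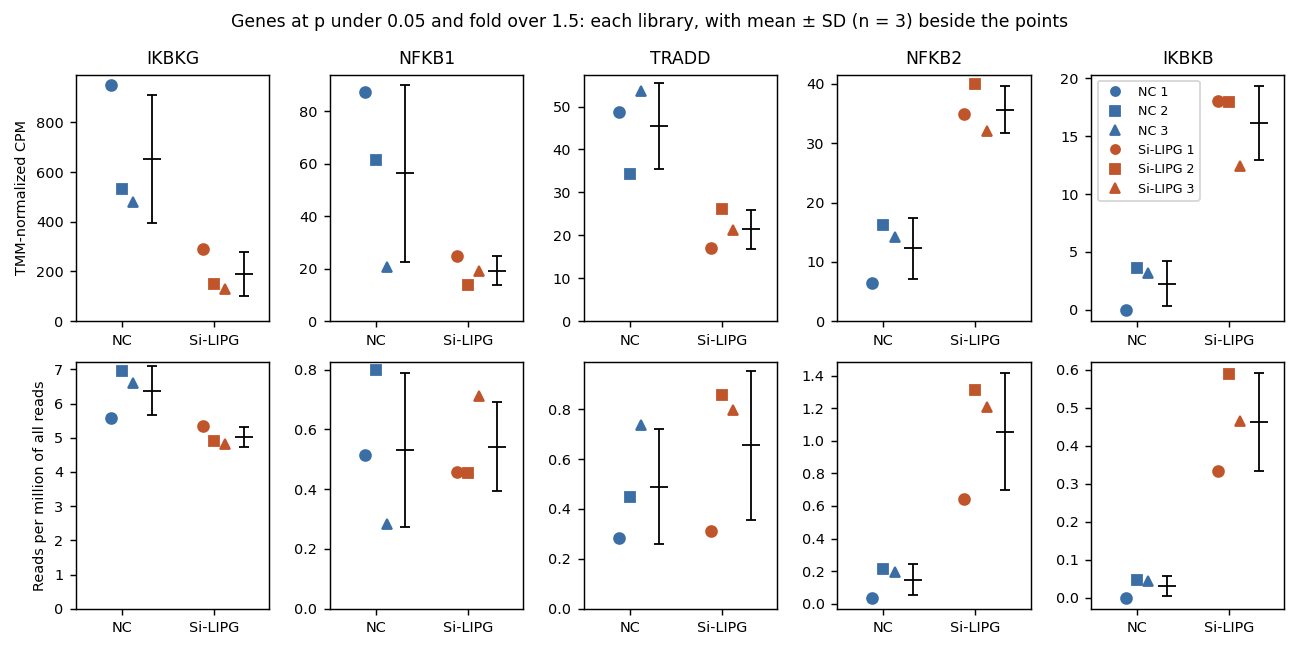
The 5 genes that passed the study's criterion, as TMM-normalized CPM (upper panels) and as RPM of all reads in the files (lower panels), with each library as a point and the mean ± SD (n = 3) beside the points. IKBKB and NFKB2 are higher in Si-LIPG on both scales and IKBKG is lower on both, while the groups of NFKB1 overlap on both and those of TRADD on the lower scale.

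RELA, the p65 subunit that carries most canonical transcriptional activity, had counts of 7, 34 and 14 in NC and 38, 46 and 62 in Si-LIPG. After normalization its groups overlapped, with a log2 fold change of 0.22 ± 0.50 (SE, adjusted p = 0.857, edgeR). RELB, the partner of p52, had 4, 0 and 6 counts against 4, 3 and 10, and REL had none, so that of the subunits with an activation domain only RELA could be tested. NFKBIA, the inhibitor IκBα and itself an NF-κB target, had 14, 0 and 2 counts in NC and 4, 16 and 5 in Si-LIPG, and CYLD, a deubiquitinase that dampens the pathway, had 0, 0 and 2 against 3, 4 and 12. Both were below the filter on low counts. The normalized values of NFKBIA overlapped between the groups. Those of CYLD did not, but only by 3.15 CPM in NC 3 against 3.26 CPM in Si-LIPG 2, from 2 and 4 counts. No conclusion is drawn from this.

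The co-factors of the core group lay near the median of all genes. PARP1 had counts of 40, 72 and 94 in NC and 140, 208 and 213 in Si-LIPG, and a log2 fold change of 0.24 ± 0.30 (SE, adjusted p = 0.713, edgeR), although its normalized groups did not overlap. ERC1, a scaffold protein that binds IKK, had 21, 39 and 58 counts against 120, 70 and 82 (0.12 ± 0.41). CSNK2A2, a catalytic subunit of casein kinase 2, had 5, 13 and 13 against 15, 33 and 25 (0.03 ± 0.61). PIAS4, a SUMO ligase, had 0, 8 and 15 against 11, 28 and 14 (0.15 ± 0.88). Leaving out 1 library moved PIAS4 between -0.33 (without NC 1) and 0.87 (without NC 3). ERC1 moved between -0.44 (without Si-LIPG 1) and 0.35 (without Si-LIPG 2). None of the 4 passed the criterion.

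The 7 listed target genes gave no test. VCAM1 was not found by name, and the other 6 had 2 to 61 counts over all libraries. IL6, an inflammatory cytokine, had counts of 4, 0 and 8 in NC and 8, 15 and 26 in Si-LIPG, and PTGS2, the inducible cyclooxygenase, had 4, 1 and 5 against 10, 3 and 8. CXCL8, a chemokine for neutrophils, had 0, 2 and 8 counts in NC and 0, 0 and 2 in Si-LIPG. In each of these 3 genes the counts of the groups overlapped, and the Si-LIPG libraries had more reads counted on genes.

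Another 3 target genes had no count in any NC library. ICAM1, an adhesion molecule for leukocytes, had 2, 6 and 2 counts in Si-LIPG. Against a floor of 3 counts over the NC group, its 10 counts were 2.10-fold higher per counted read and 3.87-fold higher per read of the files. Neither value is a firm lower limit. The TMM factors, 0.601 to 0.949 in NC and 1.06 to 1.37 in Si-LIPG, would make the fold smaller. Counting error of the Si-LIPG counts was also left out. Both values take each count as an independent read, and the counts of ICAM1 were all even. Of its 10 counts 6 were in Si-LIPG 2, so both values lean on that library and would be lower without it. TNFAIP3, the feedback inhibitor A20, had 6 counts, all in Si-LIPG 3, and CCL2, a chemokine for monocytes, had 2 counts, also in Si-LIPG 3. No fold is given for either gene. A floor of 3 counts stood for 2.85 to 5.72 CPM of counted reads in single libraries, so a lower expression of these genes was not detectable.

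Which members were higher after normalization depended on the reference to which the libraries were scaled. With TMM normalization the median log2 fold change was 0.13 over the tested members and 0.16 over all tested genes. With DESeq2 size factors in edgeR the medians were 0.10 and 0.12, with upper quartile scaling 0.16 and 0.20, with library sizes alone 0.64 and 0.74, and with counts scaled to all reads 1.51 and 1.58. The median of the members moved together with that of all genes in each case. Relative to the median of all genes, 10 of the 22 tested members lay above it and 12 below, except with DESeq2 size factors, where 11 lay above and 11 below.

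The calls followed the scaling. With library sizes alone 7 of the 22 members passed the criterion, 6 higher (IKBKB, NFKB2, TRAF2, BIRC2, TAB2 and PARP1) and 1 lower (IKBKG, log2 fold change -1.17), against 30.2% of all tested genes (1588 higher and 395 lower). Scaled to all reads 8 of the 22 passed it (against 46.1% of all tested genes), all of them higher (IKBKB, TRAF2, NFKB2, BIRC2, TAB2, PARP1, LTBR and ERC1), and 3 had an adjusted p under 0.05 (IKBKB 0.0466, BIRC2 0.0476 and NFKB2 0.0477, edgeR), while 3030 genes of the table were higher and 2 lower at the criterion. IKBKG was lower at the criterion under 4 of the 5 scalings.

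**Figure D4:**
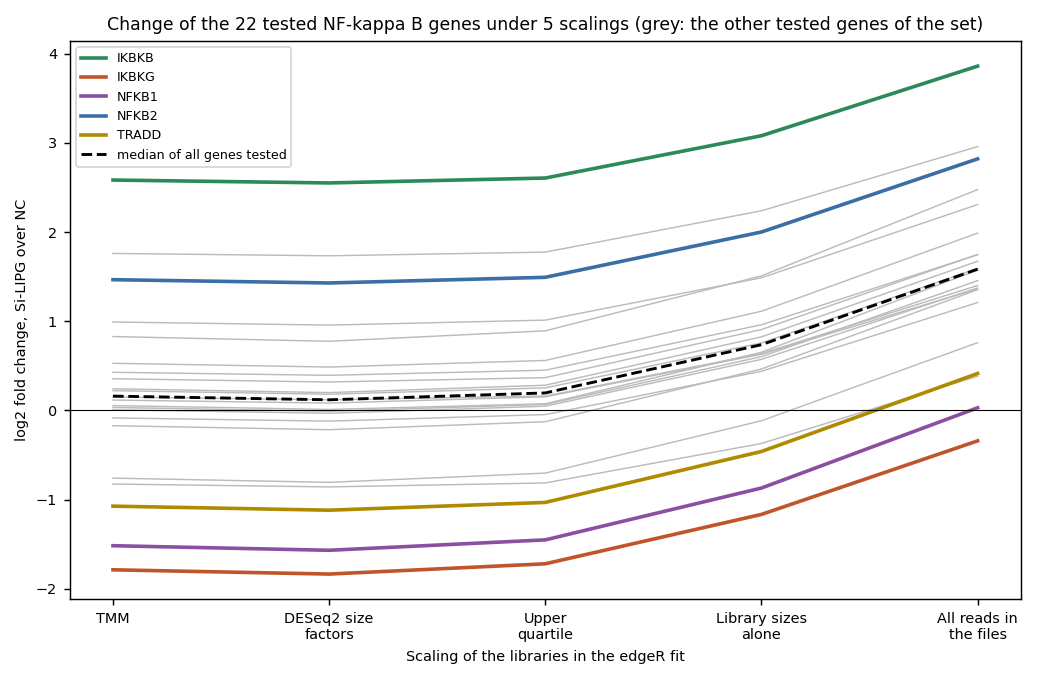
Log2 fold change (positive, higher in Si-LIPG) of the 22 pathway genes tested, under 5 scalings of the libraries in the edgeR fit, with the 5 called genes in colour, the others in grey and the median of all tested genes dashed. Every line lies higher with all reads in the files (median of all genes 1.58) than with TMM (0.16), and IKBKG stays below 0.

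Further genes of the pathway outside the 48 came from a hand-written list of 123 genes, of which 102 were in the table, 78 had a count and 28 were tested. Of these 28, 6 passed the criterion, 3 higher and 3 lower (21.4%, against 20.7% of all tested genes), and their median log2 fold change was 0.09. Of 23 receptors and ligands 1 was tested and did not pass, of 13 tested adaptors and kinases 1 was higher and 2 lower, the 8 tested inhibitors and co-factors had unadjusted p-values from 0.0882 to 0.889, and of 6 tested target genes 2 were higher and 1 lower. Those 5 other than PIDD1 are named after their values were seen. PIDD1, the scaffold that brings IKBKG and RIPK1 together after DNA damage, had counts of 1960, 1940 and 2471 in NC and 2021, 1662 and 1495 in Si-LIPG and fell by 1.54 ± 0.39 (SE) on the log2 scale (adjusted p = 0.040, edgeR). As RPM of all reads it stood at 45.5 ± 8.19 in NC and 42.5 ± 1.78 in Si-LIPG (SD, n = 3), and SLC25A22 lies within 1 kb of it in ARS1.2. Its adjusted p was above 0.05 without NC 1 (log2 fold change -1.23, adjusted p = 0.0753), NC 2 (0.0564), Si-LIPG 2 (0.255) or Si-LIPG 3 (0.270). GADD45G, a stress-response protein, had a log2 fold change of -2.55 (adjusted p = 0.0506), which was -1.78 without NC 1. TRAF4, an adaptor of the TRAF family, had -1.90 (adjusted p = 0.177) and lost the call without NC 1 (-1.29), Si-LIPG 2 (-1.43) or Si-LIPG 3 (-1.32), and it was -3.64 without Si-LIPG 1. CSF1, a macrophage growth factor, had 0.82 (adjusted p = 0.197), and TNC, a matrix protein, had 0.67 (adjusted p = 0.226). MAP3K7, the kinase TAK1 that binds TAB2, had counts of 8, 14 and 7 against 44, 50 and 68 (adjusted p = 0.189). By its NC libraries alone MAP3K7 would not have passed the filter on low counts. Leaving out any Si-LIPG library lost the calls of these last 3 genes, and so did leaving out NC 1 for CSF1 (0.55) and NC 3 for TNC (0.54) and MAP3K7 (0.87).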

How the data were processed

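The members and the lists of further genes and markers were chosen with earlier results of these data known. The 6 libraries were grouped by their titles into NC (n = 3) and Si-LIPG (n = 3). The authors deposited raw counts per gene for each library, with 5 rows that name no gene, and FPKM values of the same genes in 1 table that pairs identifiers with names. The submitters' processing notes name fastp, HISAT2, SAMtools and HTSeq; their settings, the genome build and the strand setting are not given in the sources used here. Rows that name no gene stayed out of library sizes and tests; reads on no gene were 91.6% to 93.7% of a library and unaligned reads at most 1.22%.

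Counts of the 27271 genes were filtered by edgeR's filterByExpr, which left 6574 genes, scaled by TMM and compared in a quasi-likelihood fit of edgeR that had no covariates, with Benjamini-Hochberg adjustment over all tested genes (R 4.3.3, edgeR 4.0.16, limma 3.58.1, DESeq2 1.42.0, Python 3.11.15). The study used DESeq2 with a fold change over 1.5 and an unadjusted p under 0.05; this criterion was kept and DESeq2 was an alternative. The SE of a log2 fold change was its size divided by the square root of the F statistic. The common biological coefficient of variation was 40.5%. The first principal component was taken from log2 CPM with a prior count of 2. A count of 0 allows up to 3 counts, and floors and binomial intervals cover counting error only.

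Per-library values are given for the core factors and target genes, for other members at the criterion and for the 5 highest by FPKM, by a rule set with the lists, and other members were added after their values were seen. Alternatives were other scalings, filters, tools, a replicate block, a covariate for the percentage of reads on genes, limma on log2(FPKM + 1) and log2(FPKM + 0.1), and leaving out each library. The procedures were tested on simulated data. There a log2 change of 1 reached the criterion in 41.1% of the changed genes and an adjusted p under 0.05 in 4.44%. For a log2 change of 2 these were 90.0% and 46.4%, and 4.66% of unchanged genes reached the criterion. A member that did not pass is thus not shown to be unchanged. Chi-square per degree of freedom between replicates was 4.34 to 16.6, so none was treated as a copy of another. Neighbouring genes came from RefSeq ARS1.2, in which 43 members were placed and IKBKG, IRAK1 and TRAF2 were unplaced; no coordinates are printed because the build of the files is not known.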

Additional observations from a re-analysis of the deposited data

How the results depend on the processing

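The count of 5 members at the criterion lay between 1 and 5 when 1 library was left out, and that of 1 member with an adjusted p under 0.05 between 0 and 2. Scaled to all reads these counts were 8 and 3 (46.1% of all genes at the criterion), with at least 10 counts in every library 3 and 2 (of 8 members fitted; 38.7%), and with a covariate for the percentage of reads on genes 1, IL1R1, and 0 (2.04%). The adjusted count was 0 with library sizes alone (7 at an unadjusted p under 0.05) and 0 in limma on log2(FPKM + 1) and on log2(FPKM + 0.1) (5 each). DESeq2 gave 4 of 43 members fitted at the criterion and 1 adjusted (11.4% of 14848 genes). With the replicate block 3 members passed the criterion, not IKBKB and TRADD (23.6% of all genes), and 1 the adjusted threshold (genes 925 against 428 without it). Same-numbered libraries deviated together by correlations of 0.210, 0.0639 and 0.105. Si-LIPG 1 and Si-LIPG 3 correlated best with the NC library of their number, and Si-LIPG 2 with NC 3 (0.091). The labels do not say whether same-numbered libraries were paired, and correlations this weak cannot decide it.

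Of the 22 tested members, 8 changed sign over the 5 scalings. Alternatives were tallied for 18 genes (IKBKG, NFKB1, IKBKB, NFKB2, TRADD, RELA, TAB2, PARP1, TNFRSF1A, IL1R1, TRAF2, BIRC2, PIDD1, GADD45G, TRAF4, MAP3K7, CSF1 and TNC). Among these 18, signs turned for NFKB1 (0.029) and TRADD (0.41) scaled to all reads, though not relative to the median of all genes (-1.56 and -1.17). They turned for TAB2 (-0.35) and TRAF4 (1.02) with the covariate, and for TNFRSF1A with library sizes alone (0.46), all reads (1.35) and limma (0.58 and 0.61). IL1R1 turned with the replicate block (-0.12) and the covariate (-4.19). Signs also turned for members outside the 18, such as MYD88 (0.38) and TAB3 (0.76) scaled to all reads. RIPK1 (0.44) turned with library sizes alone, and TRAF3 (-2.96) and PIAS4 (-0.81) with the covariate. Leaving out 1 library gave -0.0574 to 0.90 for RELA, -0.59 to 0.24 for TNFRSF1A and -0.77 to 0.49 for IL1R1. The cause was not tested. Over the log2 fold changes of the 18 tallied genes and all alternatives, 207 kept direction and side of the threshold, 60 kept direction and lost the threshold, 15 kept direction and passed it, and 14 reversed. The 23 members in the table that were not tested had at most 63 counts over all libraries.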

Other observations

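Low counts in these files were more often even than odd. Among genes with 1 to 10 counts, 64.3% to 68.8% of the values of a library were even, and among genes with 11 to 50 counts 58.4% to 61.6% were. Of the members' 212 values above 0, 140 were even (66.0%), such as the 2, 6 and 2 counts of ICAM1 and the 8, 16 and 14 of CFLAR in Si-LIPG. The cause was not tested.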
